A study of Mus musculus with 4 samples.

Results

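Leukocyte and sickle cell adhesion molecules were examined in whole mouse lung through 9 genes, chosen by name out of 30702 measured genes: Vcam1, Icam1, Icam2, Sele, Selp, Selplg, Itga4, Bcam and Cd36. Each had 1 probe set on the array that named it alone. The lungs came from SCD mice (sickle cell disease, strain given as SCD Tg) and from WT mice (C57/BL6), all adult and matched for age, with 2 arrays per group, titled as separate lungs. The sources used here do not give the alleles or the genetic background of the SCD line, the sex or exact age of the animals, or whether the WT mice were littermates. Labelled RNA was hybridised to Affymetrix arrays, and the deposited values were taken to be on the log2 scale, so that a step of 1 doubles the signal. Whole lung holds many cell types, and fewer cells of a type and less RNA per cell cannot be told apart in it.

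White blood cells leave the blood in steps. They first roll on selectins, which are displayed by activated endothelium and platelets and bind sugars carried by PSGL-1 on the leukocyte. They then stop when their integrins grip ICAM and VCAM proteins on the vessel wall. Sickled red cells and the leukocytes around them use several of the same proteins to stick in small vessels, and CD36 and BCAM are further contacts, for thrombospondin and for laminin, described on human red cells or their precursors.

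The array values were similar throughout. Pearson correlations across genes (not independent replicates) were 0.995 between the SCD arrays, 0.992 between the WT arrays and 0.986 to 0.988 between groups. All 7 lung epithelium markers measured alone, Sftpb and Ager among them, lay above the median of the array's intron control probes (6.27 and 6.31 on SCD arrays, 6.47 and 6.48 on WT arrays). No sample label could be checked through a globin transgene here.

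Cd36 was the only one of the 9 genes that passed the test, and it fell in SCD lung. The test was limma over all 30702 genes with Benjamini-Hochberg adjustment and a threshold of 0.05, which 3.10% of all genes passed. Only 0.635% of all genes passed as lower and 2.47% as higher. Icam1 showed the largest positive difference of the 9 but did not pass (adjusted p = 0.0575), and 0 of the 9 passed as higher. At an unadjusted p under 0.05, limma gave 3 of the 9 as higher (Icam1, Vcam1 and Icam2), beside 10.6% of all genes, and Cd36 alone as lower, beside 6.07%. Both SCD arrays lay above both WT arrays for 6 of the 9 genes (66.7%) and for 25.3% of all genes. They lay below both WT arrays for Cd36 alone, beside 22.5% of all genes. Sele and Bcam overlapped between the groups. The median difference (SCD minus WT, log2) was 0.20 over the 9 genes and 0.0020 over all genes. With repeated quantile normalization these medians were 0.10 and -0.018, and with cyclic loess 0.15 and -0.0053. The exon control probes were themselves higher on the SCD arrays, at 10.26 and 10.29, against 10.01 and 10.15 on the WT arrays. With that shift of 0.20 taken off every SCD value, the median of all genes became -0.19 and that of the 9 genes 0.0056. The small positive differences of Selplg, Bcam and Sele then turned negative. For Itga4, Selp and Selplg, the gap between the groups (0.16, 0.13 and 0.065) was smaller than that shift. The dimmer intron control probes were instead lower on the SCD arrays, at 6.31 and 6.27, against 6.48 and 6.47 on the WT arrays. A single shift therefore does not suit both control classes, and Sele was dimmer than the intron control median on every array.

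**Figure D1:**
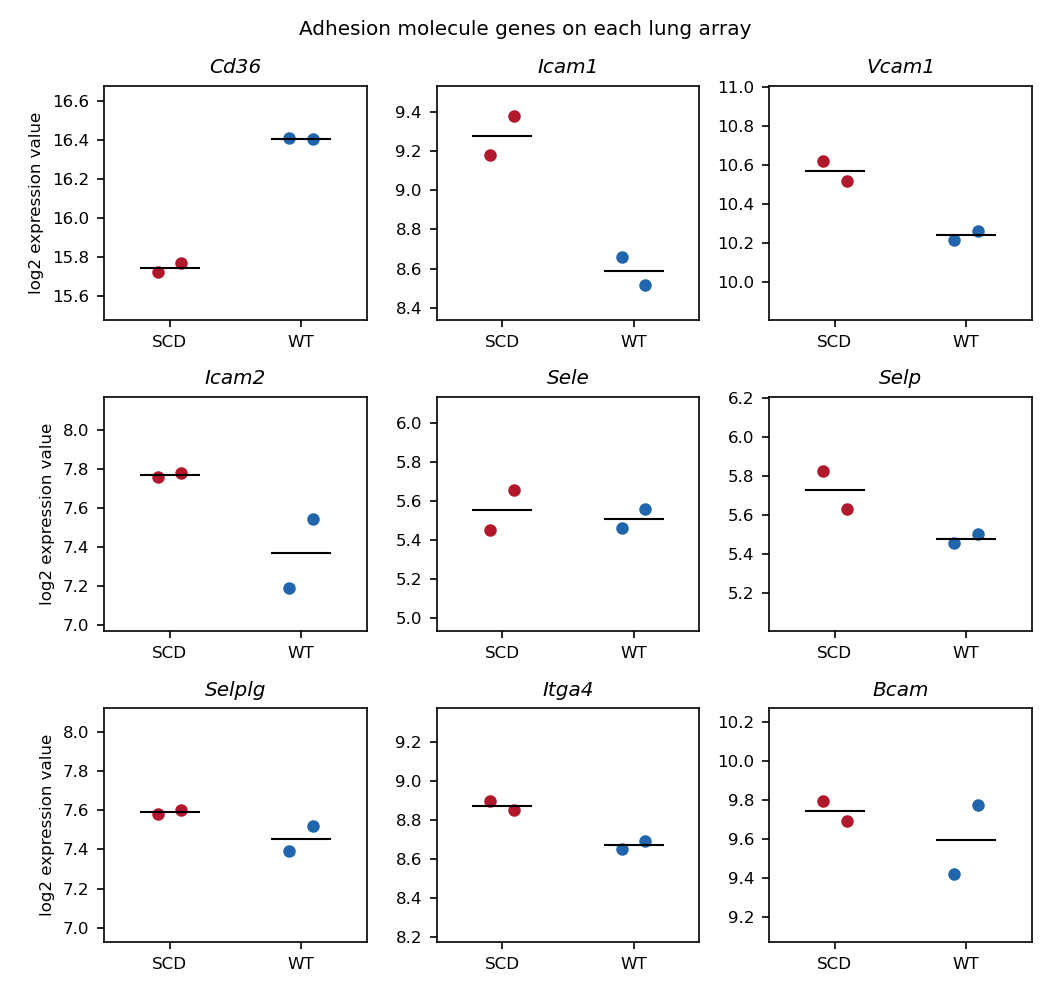
Log2 expression value (vertical axis, each panel spanning the same range of log2 units around its own centre) of the 9 adhesion genes on the SCD arrays (red points) and the WT arrays (blue points), with group means as lines. Cd36 lies lower on both SCD arrays, Icam1, Vcam1, Icam2, Selp, Selplg and Itga4 lie higher on both, and Sele and Bcam overlap.

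The sequence before the start of Cd36 is shown because it was the one gene called, and those of Icam1 and Sele because both are textbook targets of cytokine signalling with unlike values here. Each is 300 bases of RefSeq sequence (assembly GRCm38.p6), from 250 bases before to 50 after the annotated start, 5′ to 3′ on the gene's strand. Icam1 is at chr9:21015690-21015989 (plus strand), Sele at chr1:164047984-164048283 (plus strand) and Cd36 at chr5:17835847-17836146 (minus strand). Capitals mark matches to GGNNNTTCC, an NF-kB type motif, on either strand.
Cd36: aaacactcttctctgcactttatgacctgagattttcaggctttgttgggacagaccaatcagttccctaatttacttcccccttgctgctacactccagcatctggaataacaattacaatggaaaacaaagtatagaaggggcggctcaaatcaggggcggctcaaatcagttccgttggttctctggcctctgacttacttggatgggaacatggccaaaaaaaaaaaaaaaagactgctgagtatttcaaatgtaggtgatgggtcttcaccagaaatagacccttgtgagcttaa
Icam1: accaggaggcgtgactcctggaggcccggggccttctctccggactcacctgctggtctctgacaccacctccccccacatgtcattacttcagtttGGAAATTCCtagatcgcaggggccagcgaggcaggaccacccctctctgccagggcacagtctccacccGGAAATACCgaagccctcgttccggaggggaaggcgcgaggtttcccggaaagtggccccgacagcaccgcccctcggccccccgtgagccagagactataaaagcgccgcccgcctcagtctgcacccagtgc
Sele: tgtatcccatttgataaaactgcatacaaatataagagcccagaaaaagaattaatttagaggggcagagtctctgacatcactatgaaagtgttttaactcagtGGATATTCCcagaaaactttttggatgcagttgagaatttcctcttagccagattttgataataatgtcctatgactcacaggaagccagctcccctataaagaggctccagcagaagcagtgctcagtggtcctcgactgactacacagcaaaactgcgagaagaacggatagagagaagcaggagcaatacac

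The NF-kB type motif occurred in the Icam1 window as GGAAATTCC, 153 to 145 bases before the start, and on the opposite strand as GGAAATACC in the orientation printed, 84 to 76 bases before it. The Sele window held it once, as GGATATTCC, 145 to 137 bases before the start, and the Cd36 window held none. Of all 32851 promoter windows of this length, 18.5% held the motif, so that a match is common. The STAT type motif TTCNNNGAA was in the Icam1 window (42 to 34 bases before the start) and in that of Sele, where it overlaps the NF-kB type match, and in 8.30% of all windows. The nuclear receptor hexamer AGGTCA, which PPAR sites contain, was in the Cd36 window on the opposite strand, 228 to 223 bases before the start, and in 16.3% of all windows. The window of Selp, not shown, held this hexamer too, 93 to 88 bases before the start. It also held an NF-kB type match, 14 to 6 bases before the start, both on the opposite strand. The windows of Itga4 and Bcam held neither, and no window was at hand for Vcam1, Icam2 and Selplg. The TATA box letters TATAAA were in the Sele window, 49 to 44 bases before the start, and in 13.6% of all windows. In the Icam1 window these letters lay 13 to 18 bases after the annotated start, not before it.

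CD36 is a scavenger receptor that takes up long-chain fatty acids and oxidised lipids and binds thrombospondin; it is carried by capillary endothelium, macrophages, adipocytes, muscle and platelets. Cd36 had log2 values of 15.72 and 15.77 in SCD lungs, against 16.41 and 16.40 in WT lungs. The gap between the groups, 0.64, was larger than the distance between arrays of a group, which was 0.045 for SCD and 0.0084 for WT. Cd36 fell by 0.66 ± 0.05 on the log2 scale (limma difference ± SE, n = 2 arrays per group, adjusted p = 0.0078), to 0.632 of the WT level (95% confidence interval 0.575 to 0.694). Only 1.52% of all genes had a difference further below 0. Without the intensity trend in the variance, limma's adjusted p for Cd36 was 0.0566. It was 0.107 without SCD replicate 1 and 0.108 without SCD replicate 2, when limma called 0 genes in all (3306 and 3270 at an unadjusted p under 0.05), although the difference stayed between -0.68 and -0.64 whichever array was left out.

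Markers of cells that carry CD36 moved in SCD lung as well, some lower and some higher. Over all genes, 2.47% passed as higher and 0.635% as lower. Of 8 capillary genes, 4 fell and 2 rose. Aplnr, the apelin receptor, fell by 3.31 ± 0.21, Kit by 2.18 and Tek by 1.94. Gpihbp1, which anchors lipoprotein lipase to capillaries, fell by 1.56 ± 0.09, while Car4 and Apln rose by 1.18 and 0.92. The summed level of the capillary list (log2 of the summed linear values, which follows the brightest members of a list) was 14.44 and 14.57 in SCD lungs, against 14.94 and 14.91 in WT lungs. Its brightest gene was Car4 in SCD lungs (13.42 and 13.63) but Gpihbp1 in WT lungs (13.55 and 13.39). That sum therefore does not follow the same gene in both groups. Of 5 adipocyte genes, Adipoq and Retn fell (by 1.33 and 0.94), and the summed level was 8.97 and 8.92 in SCD lungs, against 9.74 and 10.05 in WT lungs; Plin1 and Lep were below the intron control median on all 4 arrays. Of 6 alveolar macrophage genes, Marco and Fabp4 fell (by 1.48 and 1.22). Chil3, Pparg and Siglecf differed by 0.39, 0.38 and -0.49 without passing. Marco was below the intron control median on both SCD arrays and Krt79 on all 4 arrays, and the median difference of the list was -0.28. The summed level of that list, 13.92 and 13.98 in SCD lungs, against 13.57 and 13.71 in WT lungs, is mostly that of Chil3, which had 13.84 and 13.90 in SCD lungs, against 13.40 and 13.55 in WT lungs. Of 7 pan-endothelial genes only Cdh5 passed, lower. The summed level, mostly that of Cdh5, ran from 15.21 to 15.24 in SCD lungs and from 15.49 to 15.66 in WT lungs. Of 5 cardiac muscle genes, 2 rose and 0 fell, with summed levels of 14.63 and 14.72 in SCD lungs, against 13.80 and 13.69 in WT lungs. Of 9 platelet genes, 3 rose and 0 fell, with summed levels of 12.86 and 12.86 in SCD lungs, against 10.63 and 10.79 in WT lungs. The part of these cell types in the lower Cd36 value was not tested.

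ICAM-1, ICAM-2 and VCAM-1 are the endothelial partners of leukocyte integrins, and all 3 genes were higher on both SCD arrays than on both WT arrays without passing the test. Icam1, which cytokines induce on endothelium and which alveolar type 1 cells also carry, had log2 values of 9.18 and 9.38 in SCD lungs, against 8.66 and 8.52 in WT lungs. The groups lay 0.52 apart, more than the 0.20 between the SCD arrays or the 0.14 between the WT arrays. Its difference of 0.69 ± 0.12 is 1.61-fold (95% confidence interval 1.31 to 1.99), and 96.4% of all genes had a lower difference. Icam1 missed the threshold (adjusted p = 0.0575), and it passed when the dimmest 25% or 50% of genes were left out (adjusted p of 0.0472 and 0.0361). With an array left out, limma's adjusted p ran from 0.113 to 0.348, and with the exon control shift taken off the difference was 0.49 (adjusted p = 0.0984).

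Vcam1, the ligand of alpha 4 integrins on activated endothelium, had log2 values of 10.62 and 10.51 in SCD lungs, against 10.22 and 10.26 in WT lungs. Both SCD values were higher, by 0.25 at the nearest, and the difference was 0.33 ± 0.09 (95% confidence interval 0.10 to 0.56, adjusted p = 0.16). Icam2, which endothelium carries without stimulation, had log2 values of 7.76 and 7.78 in SCD lungs, against 7.19 and 7.55 in WT lungs. The WT arrays of Icam2 were 0.35 apart, WT replicate 1 being the low one, and the groups only 0.21. Its difference was 0.40 ± 0.15 (adjusted p = 0.272), and 0.22 without WT replicate 1. In the same lungs 0 of 7 pan-endothelial genes rose and 1 fell, beside 2.47% and 0.635% of all genes. Of 6 pan-leukocyte genes 0 passed, and of 10 neutrophil genes 6 rose and 0 fell. The part of any cell type in the Icam1, Vcam1 and Icam2 values was not tested.

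**Figure D2:**
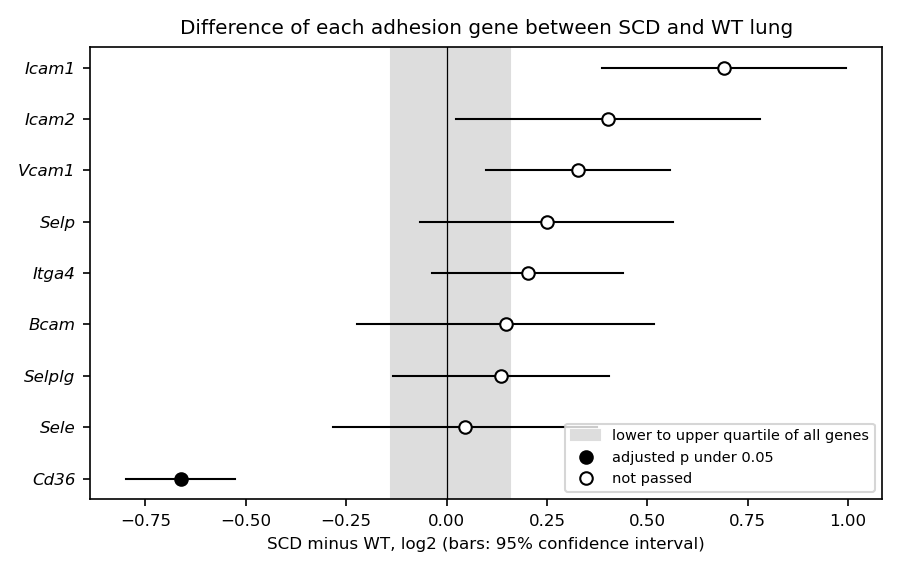
Difference between SCD and WT lung (SCD minus WT, log2, horizontal axis) for each of the 9 adhesion genes, with 95% confidence intervals from limma as bars; filled points passed the threshold and the grey band spans the lower to the upper quartile of all genes (-0.14 to 0.16). Cd36 lies at -0.66 and is the only filled point, and the intervals of Icam1, Icam2 and Vcam1 also leave out 0 before adjustment.

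The selectins gave dim signals. Sele encodes E-selectin, which endothelium makes when cytokines act on it, and Selp encodes P-selectin, which endothelium and platelets hold in storage granules. Both measured selectins were below the intron control median on all 4 arrays. Sele had log2 values of 5.45 and 5.66 in SCD lungs, against 5.46 and 5.56 in WT lungs. The groups overlapped, with a difference of 0.04 ± 0.13 (95% confidence interval -0.28 to 0.37, adjusted p = 0.909). Its window before the start held NF-kB and STAT type letters, as did that of Icam1, whose difference was 0.69 ± 0.12; these 2 differences were not tested against each other. Selp had log2 values of 5.82 and 5.63 in SCD lungs, against 5.45 and 5.50 in WT lungs. Both SCD arrays were higher, by 0.13 at the nearest, which is less than the 0.19 between them, and the difference of 0.25 ± 0.12 did not pass (95% confidence interval -0.07 to 0.56, adjusted p = 0.408). Platelet markers moved beside Selp: 3 of 9 rose (Ppbp by 3.31, Pf4 by 1.13 and Tubb1 by 0.73) and 0 fell, beside 2.47% and 0.635% of all genes. Their summed level was 12.86 and 12.86 in SCD lungs, against 10.63 and 10.79 in WT lungs. In SCD lungs that sum is mostly Ppbp, at 12.49 and 12.51. Itga2b and Gp6, also platelet genes, were below the intron control median on all 4 arrays, and Tubb1 was below it on 2. Gp9 and Clec1b were above it on all 4 arrays and did not pass, with differences of 0.14 and -0.0041. Gp5, below it on 2 arrays, differed by 1.23 and did not pass either. The part of platelets in the Selp values was not tested.

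On the leukocyte side, neither Selplg nor Itga4 passed. Selplg encodes PSGL-1, the main selectin ligand of leukocytes, and had log2 values of 7.58 and 7.60 in SCD lungs, against 7.39 and 7.52 in WT lungs. The groups were 0.065 apart, less than the 0.12 between the WT arrays, and the difference was 0.14 ± 0.10 (95% confidence interval -0.13 to 0.41, adjusted p = 0.601). Itga4, the alpha 4 integrin chain that binds VCAM-1 and fibronectin, had log2 values of 8.90 and 8.85 in SCD lungs, against 8.65 and 8.69 in WT lungs. Here the groups were 0.16 apart and the arrays of a group at most 0.046, but the difference of 0.20 ± 0.09 did not pass (adjusted p = 0.372). With the exon control shift taken off, it was 0.0056. Its partner chain genes did not pass either: Itgb1 differed by 0.17 and Itgb7 by 0.18. Leukocyte markers moved beside these genes. Over all genes, 2.47% passed as higher and 0.635% as lower, and 5131 of 30702 had an unadjusted limma p under 0.05. Summed levels again follow the brightest members of a list. Of 10 neutrophil genes 6 rose and 0 fell, with summed levels of 18.75 and 18.91 in SCD lungs, against 16.07 and 16.47 in WT lungs; Ly6g, Mmp9 and Ngp were below the intron control median on all 4 arrays. Of 8 T and NK cell genes 4 rose, with summed levels of 11.70 and 11.78 in SCD lungs, against 10.82 and 10.85 in WT lungs; Cd4 was below that median. Of 6 monocyte genes 2 rose, with summed levels of 16.78 and 16.75 in SCD lungs, against 15.23 and 15.23 in WT lungs. That sum is mostly Ly6c2, which had 16.76 and 16.73 in SCD lungs, against 15.19 and 15.19 in WT lungs. Of 6 pan-leukocyte genes 0 passed in limma (3 at an unadjusted p under 0.05), with summed levels of 13.11 and 13.20 in SCD lungs, against 12.69 and 12.79 in WT lungs. Of 5 B cell genes 0 passed (1 at an unadjusted p under 0.05), with summed levels of 10.40 and 10.33 in SCD lungs, against 10.50 and 10.61 in WT lungs; Blk was below that median. The part of leukocyte number in the Selplg and Itga4 values was not tested.

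Bcam encodes the Lutheran glycoprotein, a laminin receptor of epithelium, smooth muscle and endothelium, which human red cells carry as well. It had log2 values of 9.79 and 9.69 in SCD lungs, against 9.42 and 9.77 in WT lungs. The groups overlapped, WT replicate 1 being low, and the difference was 0.15 ± 0.14 (95% confidence interval -0.22 to 0.52, adjusted p = 0.689). Without WT replicate 1 it was -0.03. The gene of its laminin ligand, Lama5, differed by 0.07 and did not pass. Of 6 smooth muscle genes 1 rose (Cnn1), with summed levels of 12.53 and 12.55 in SCD lungs, against 11.83 and 12.08 in WT lungs. Of 7 erythroid genes 3 rose and 0 fell, beside 2.47% and 0.635% of all genes. Their summed levels were 12.29 and 12.40 in SCD lungs, against 9.38 and 9.45 in WT lungs. That sum is mostly Alas2, which had 12.18 and 12.29 in SCD lungs, against 8.62 and 8.80 in WT lungs. Klf1, Rhag, Epb42 and Ermap were below the intron control median on all 4 arrays, and Rhag is 1 of the 3 that rose. Of 7 lung epithelium genes 0 passed in limma, nor did any reach an unadjusted p under 0.05. Their summed level gives no direction, because Sftpc and Scgb1a1, which make up most of it, stood at the table's highest value (19.93) on all 4 arrays. Of 5 venous endothelial genes 0 passed in limma (1 at an unadjusted p under 0.05, beside 5131 of all 30702 genes). Their summed levels were 11.13 and 11.01 in SCD lungs, against 10.91 and 11.13 in WT lungs. Ackr1 was below the intron control median on all 4 arrays. The part of these cells in the Bcam values was not tested.

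**Figure D3:**
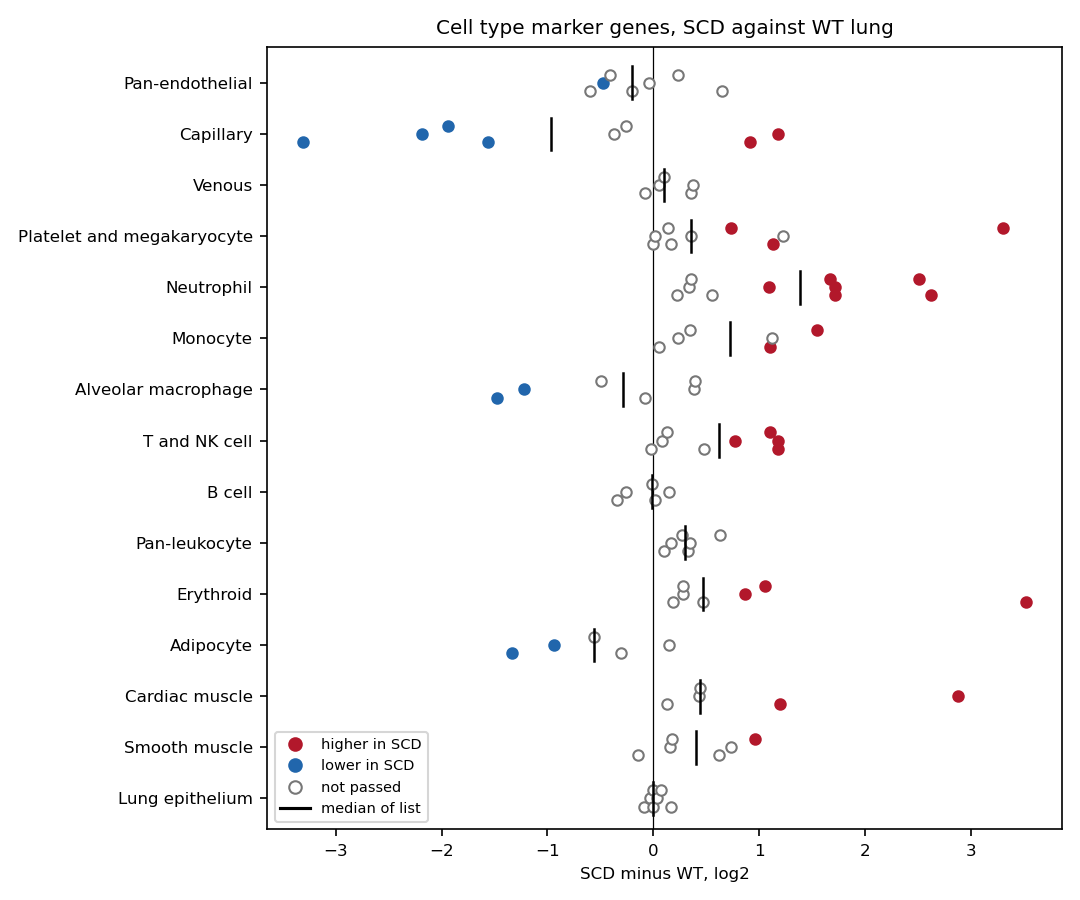
Difference between SCD and WT lung (SCD minus WT, log2, horizontal axis) of each marker gene of 15 cell types (rows), with list medians as black lines; red and blue points passed the threshold as higher and lower in SCD. Neutrophil, monocyte, platelet, T and NK cell, erythroid, cardiac muscle and smooth muscle rows hold red points without blue ones. Adipocyte, alveolar macrophage and pan-endothelial rows hold blue points without red ones, and the capillary row holds both.

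Among 77 other measured genes of the adhesion pathway, in 5 lists, 6 rose, 1 fell and 70 did not pass; without either SCD array, limma called none of them. Over all genes, 2.47% passed as higher and 0.635% as lower. The endothelial and junction list had 1 of 15 genes higher and 1 lower. Cd34, a sialomucin of endothelium and blood progenitor cells, had log2 values of 12.33 and 12.17 in SCD lungs, against 11.30 and 10.99 in WT lungs. It rose by 1.11 ± 0.13 (adjusted p = 0.022). Cdh5, VE-cadherin of the endothelial junction, had log2 values of 14.83 and 14.86 in SCD lungs, against 15.24 and 15.39 in WT lungs. It fell by 0.47 (adjusted p = 0.049), but limma's adjusted p was 0.142 without the intensity trend, 0.0692 with robust eBayes and 0.0817 with equal array medians, and 0.0612 without WT replicate 2. The median difference of this list was 0.11.

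The leukocyte integrin list had 0 of 17 genes past the threshold in limma (5 at an unadjusted p under 0.05), with a median of 0.06. Over all genes, 5131 of 30702 were under that unadjusted p. Its smallest p-values were those of Itga6, a laminin receptor chain, at -0.48 (adjusted p = 0.0686), and Itgam, the alpha chain of Mac-1 that binds ICAM-1, at 0.64 (adjusted p = 0.0989). Of the chains that also form ICAM receptors, Itgb2 and Itgal differed by 0.41 and 0.40 and Itgax by -0.34, and none of these passed.

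In the list of selectins, their ligands and the enzymes that make these, 1 of 15 genes rose, 0 fell and the median was 0.09. Cd24a, a small glycoprotein that can carry P-selectin ligands and is found on leukocytes, red cell precursors and epithelium, had log2 values of 16.73 and 16.68 in SCD lungs, against 15.16 and 15.74 in WT lungs. It rose by 1.26 ± 0.19 (adjusted p = 0.0413); limma's adjusted p was 0.0714 when the trend was dropped and 0.0582 after removal of the exon control shift.

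Of 13 sickle red cell and platelet adhesion partners, 1 rose, 0 fell and the median was 0.07. Fn1, fibronectin, a ligand of alpha 4 integrins, had log2 values of 13.15 and 13.21 in SCD lungs, against 12.21 and 12.27 in WT lungs. It rose by 0.94 ± 0.07 (adjusted p = 0.0078). Thbs1, the thrombospondin that binds CD36, differed by 0.41 (limma adjusted p = 0.161). Icam4, a red cell adhesion gene, differed by 0.23 and Vwf, which tethers platelets to the vessel wall, by 0.06. None of these 3 passed, and Icam4 was below the intron control median on all 4 arrays.

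Of 17 genes of cytokines and NF-kB feedback, 3 rose, 0 fell and the median was 0.15. Il1b and Il1a, cytokines that induce endothelial adhesion genes, rose by 2.65 ± 0.19 and 1.30 ± 0.15. Il1b had log2 values of 8.97 and 9.07 in SCD lungs, against 6.62 and 6.11 in WT lungs. The chemokine gene Cxcl10 rose by 1.18 ± 0.12 but was below the intron control median on all 4 arrays, and its adjusted p was 0.0638 without WT replicate 1 and 0.0559 without WT replicate 2. Tnf, the other main inducer, differed by 0.56 (limma adjusted p = 0.127) but was below the intron control median on 3 of the 4 arrays. The inhibitor gene Nfkbia, which NF-kB itself induces, differed by 0.11. In the same list Ccl2, Rela, Tnfaip3, Birc3 and Il1r1 differed by 0.74, 0.41, 0.38, -0.01 and -0.35. None of these passed.

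**Figure D4:**
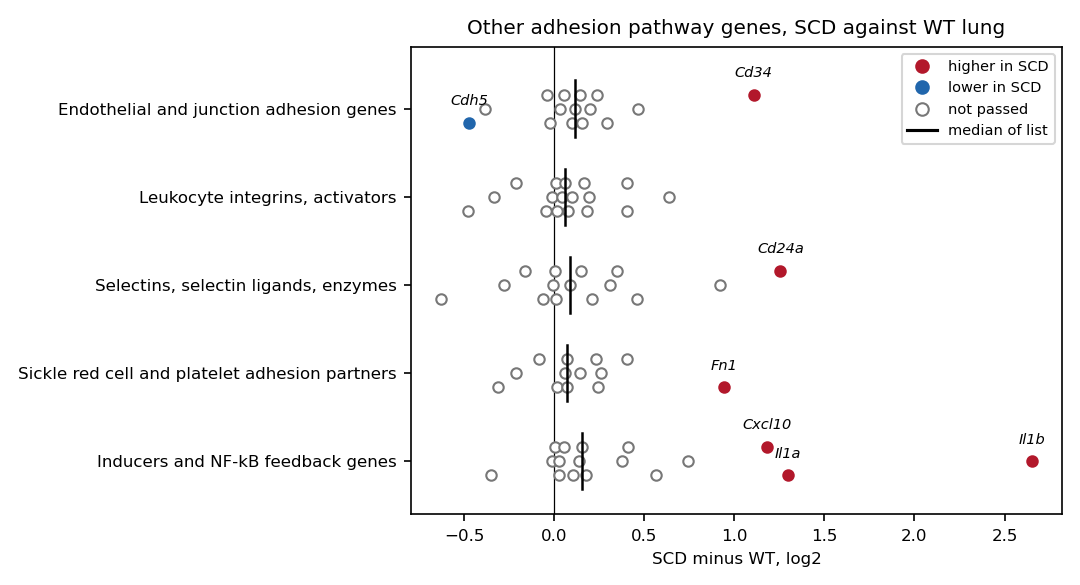
Difference between SCD and WT lung (SCD minus WT, log2, horizontal axis) of each measured gene in 5 adhesion pathway lists (rows), with list medians as black lines; genes past the threshold are filled and named. List medians lie between 0.06 and 0.15, with Cd34, Cd24a, Fn1, Cxcl10, Il1a and Il1b to the right and Cdh5 to the left.

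**Figure D5:**
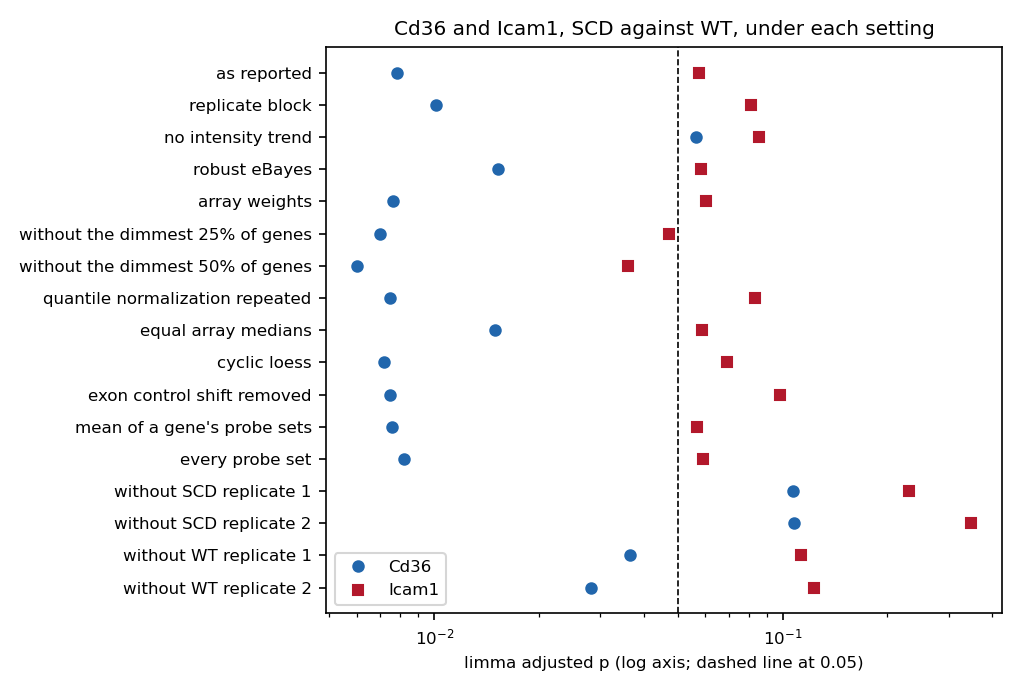
Adjusted p of Cd36 (circles) and Icam1 (squares) from limma on a log axis, as reported and under each other setting (rows), with the threshold of 0.05 as a dashed line. Cd36 crosses the line without the intensity trend and without either SCD array, and Icam1 lies left of it where dim genes were left out.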

How the data were processed

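The authors deposited 1 table of log2 values, 1 per probe set and array, for 4 arrays. Per the labels' protocols, RNA of whole lung was taken up in TRIzol and biotin-labelled with an Affymetrix 3' IVT kit. Affymetrix Expression Console, Partek and RMA are named per the submitters' processing notes, with no version, role or order. The log2 scale was read from the values (1.72 to 19.93); depth does not apply, and the number of arrays limits precision.

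The platform annotation, with symbols updated through RefSeq (GRCm38.p6), named 1 gene for 31258 probe sets and several for 1492. The probe set brightest on average stood for a gene, which gave 30702 genes. SCD was compared with WT in R 4.3.3 with limma 3.58.1 (lmFit, eBayes with an intensity trend, group as the only term, two-sided, Benjamini-Hochberg over all genes), and the code was tested on simulated data. No label says that arrays came from separate animals, so p-values measure the spread between these samples, which may be technical. Differences are SCD minus WT ± SE.

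The 9 members and all lists were chosen with earlier results of these data known. Named genes were the 9 members and their direct partners, whatever their values. Of each pathway list, those past the threshold were named, or the 2 with the smallest p where there were none. Itgax, Tnf, Nfkbia, Ccl2, Rela, Tnfaip3, Birc3, Il1r1 and the marker genes were named outside this rule, after their values were seen. Alternatives were the replicate number as a block, other variance models and array weights, filters on dim genes, other normalizations, other handling of probe sets, another threshold and each array left out in turn.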

Additional observations from a re-analysis of the deposited data

How the results depend on the processing

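Cd36 kept its negative difference under all 17 alternatives, with adjusted p from 0.0060 to 0.0152 except in limma without the intensity trend (-0.66, adjusted p = 0.0566) and with an array left out, when the difference ran from -0.68 to -0.64 and the adjusted p from 0.0281 to 0.108. Icam1 stayed positive in all 17. Its 0.69 passed without the dimmest 25% (adjusted p = 0.0472) or 50% of genes (0.0361) and at a threshold of 0.10 (0.0575), and with an array left out it ran from 0.59 to 0.79. The number of the 9 genes called was therefore 0 without the intensity trend, 2 under those 3 settings, 0 or 1 with an array left out and 1 otherwise. Vcam1, Icam2, Selp and Itga4 stayed positive and did not pass under any alternative they had a value for. With the exon control shift removed, Sele (-0.15), Selplg (-0.060) and Bcam (-0.049) reversed, though the intron controls were lower on the SCD arrays. With an array left out, Sele ran from -0.057 (without SCD replicate 2; -0.0055 without WT replicate 1) to 0.15, and Bcam from -0.030 (without WT replicate 1) to 0.32. Sele and Selp were among the dimmest 50% of genes and have no value there.

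Over all genes, 952 were called, 79.5% of them higher in SCD; with the replicate block, 973, and the block changed no call among the 9 genes. Same-numbered arrays share only a number: their deviations from the group means had a Pearson correlation of -0.0022 across genes. The share higher was 64.4% with repeated quantile normalization and 47.8% with the exon control shift removed. At the threshold of 0.10, 1754 genes and 12 of 77 pathway genes were called. Without an array, 0 to 786 genes and 0 to 6 pathway genes were called: 0 without either SCD array (3306 and 3270 genes at an unadjusted p under 0.05) and 508 without WT replicate 1. Fewer arrays leave fewer degrees of freedom, and the array left alone is assumed to vary like the other group.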
